A study of Triticum aestivum with 12 samples.

Results

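COMT1 (LOC543449) and PEAMT1 (LOC543067) are a pair of wheat methyltransferases, measured here in seedling roots by 1 probe set each, Ta.336.1.S1_x_at and Ta.1842.1.S1_a_at. These 2 probe sets were taken by name from 61179 tested probe sets of an Affymetrix wheat array. The arrays held root RNA of wheat seedlings aged 18 days and grown in sand, from 3 genotypes that the labels call Pavon76, Pavon-TL and Null Control. Plants were watered each day (well water) or every 2 days (water stress), and each of the 6 groups had 2 arrays, numbered 1 and 2 in the titles. The labels do not say what distinguishes Pavon-TL and Null Control from the cultivar Pavon76, nor whether numbered arrays came from separate plants, so the p-values measure the spread between these arrays, which may be technical.

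Both enzymes take a methyl group from S-adenosylmethionine. COMT1 belongs to the caffeic acid O-methyltransferases, which methylate phenylpropanoid intermediates on the way to the syringyl units of lignin, the polymer that stiffens xylem and other walls of the root. PEAMT1 is a phosphoethanolamine methyltransferase: it adds methyl groups in succession to phosphoethanolamine and yields phosphocholine, the source of choline for phosphatidylcholine in membranes and, in cereals, for the osmoprotectant glycine betaine. In Arabidopsis, loss of a phosphoethanolamine methyltransferase alters root growth. Both reactions release S-adenosylhomocysteine, an inhibitor of methyltransferases, which the hydrolase SAHH removes.

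The COMT1 signal differed mainly between arrays of different replicate number, and differed far less between genotypes or water conditions. It averaged 13.74 ± 0.19 (SD, n = 6) over the arrays numbered 1 and 12.93 ± 0.10 (SD, n = 6) over those numbered 2, on the log2 scale of the RMA values. PEAMT1 had no such split, at 11.33 ± 0.16 (SD, n = 6) and 11.34 ± 0.16 (SD, n = 6). Water stress and genotype moved neither gene past limma's threshold, a Benjamini-Hochberg adjusted p below 0.05 over all tested probe sets, with or without the replicate number in the model.

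In Pavon76 under well water COMT1 read 13.91 on array 1 and 12.92 on array 2, and under water stress 13.39 and 12.91. Pavon-TL gave 13.91 and 13.06 under well water and 13.75 and 12.77 under water stress. In Null Control the values were 13.78 and 12.90 under well water and 13.72 and 13.00 under water stress. In all 6 groups the array numbered 1 was the higher one, and the lowest of these (Pavon76 under water stress) still lay above the highest array numbered 2 (Pavon-TL under well water).

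PEAMT1 read 11.37 and 11.16 in Pavon76 under well water and 11.32 and 11.15 under water stress. Pavon-TL had the 2 highest arrays of all, 11.49 and 11.56 under well water, and 11.04 and 11.46 under water stress. Null Control gave 11.44 and 11.34 under well water and 11.29 and 11.37 under water stress. The lowest array of the 12 was thus the first stressed Pavon-TL array, and the arrays numbered 1 were higher in 3 of 6 groups.

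**Figure D1:**
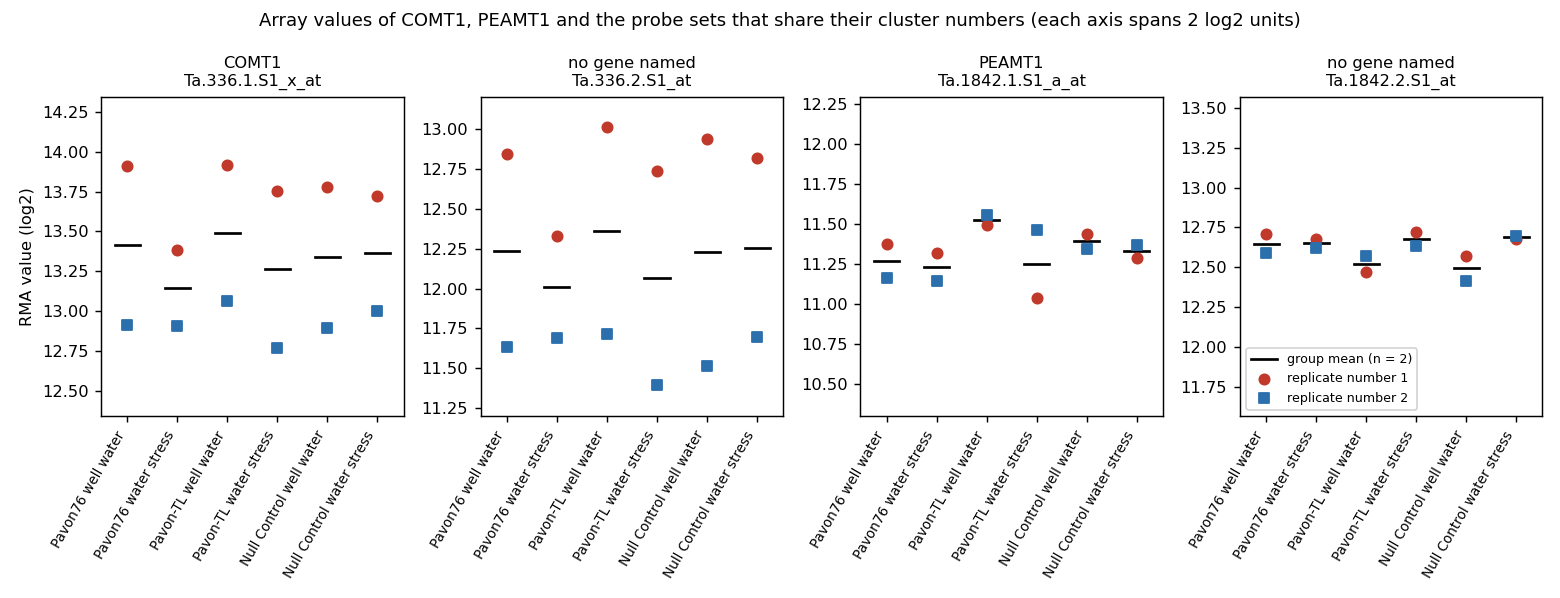
RMA values (log2, y axis) of COMT1, PEAMT1 and the probe sets that share their cluster numbers on each array of the 6 groups (x axis); red circles are arrays numbered 1, blue squares arrays numbered 2, and black bars the group means of 2 arrays. The red and blue points of COMT1 and Ta.336.2.S1_at separate without overlap, those of PEAMT1 and Ta.1842.2.S1_at mix.

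The group means of COMT1 lay close together. Pavon-TL under well water was highest at 13.49 ± 0.60 (SD, n = 2), followed by Pavon76 under well water (13.41 ± 0.70), Null Control under water stress (13.36 ± 0.51), Null Control under well water (13.34 ± 0.62), Pavon-TL under water stress (13.26 ± 0.69) and Pavon76 under water stress (13.15 ± 0.34). No neighbours in this order differed by more than the spread between their arrays. For PEAMT1 the order was Pavon-TL under well water (11.53 ± 0.05, SD, n = 2), Null Control under well water (11.39 ± 0.07), Null Control under water stress (11.33 ± 0.06), Pavon76 under well water (11.27 ± 0.15), Pavon-TL under water stress (11.25 ± 0.30) and Pavon76 under water stress (11.23 ± 0.12). Here Pavon-TL and Null Control under well water were the only neighbours whose arrays did not overlap.

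The difference between replicate numbers was measured next. COMT1 was higher on the arrays numbered 1 by 0.82, which is 1.76-fold, as the mean over the groups. With daily watering the difference was 0.995 for Pavon76, 0.85 for Pavon-TL and 0.88 for Null Control. The stressed groups of the same genotypes gave 0.48, 0.98 and 0.72. The smallest value, that of stressed Pavon76, came with a smaller difference between numbers across the whole array: its slope on the mean difference of the other groups was 0.69 over all probe sets, against 0.92 to 1.04 in the other 5 groups.

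Such a split was common on these arrays. Arrays numbered 1 lay wholly above those numbered 2 in 6.61% of all tested probe sets, and wholly below them in 9.12%. The mean difference of COMT1 was at percentile 95.7 by size, with 2638 probe sets at least as far apart, and that of PEAMT1 (-0.02) at percentile 7.73. The labels do not say what the numbers mark, and the source of the difference was not tested. The median level of DMAS1, a root gene described further on, was 10.94 on the arrays numbered 1 and 8.87 on those numbered 2. In whole roots, fewer cells of a type and less RNA per cell cannot be told apart, and neither these nor other sources were tested. The SD of COMT1 within groups was 0.59 (percentile 95.1 of all probe sets), and 0.14 (percentile 54.1) once the mean difference between the numbers was taken out. The same step left PEAMT1 at 0.17 (percentile 70.6), from 0.15 (percentile 44.6) before it. The number thus took up most of the spread of COMT1 within groups and none of that of PEAMT1.

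**Figure D2:**
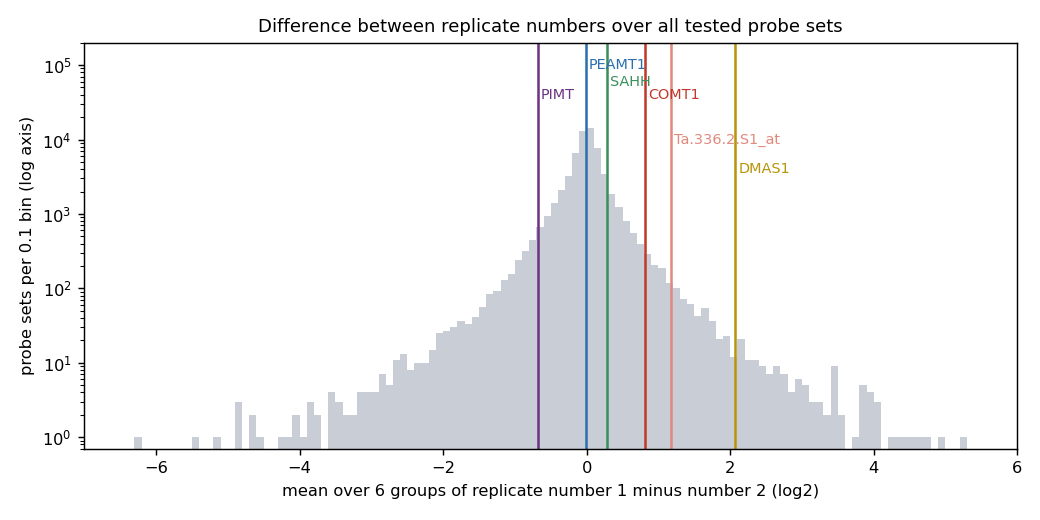
Histogram of the mean difference between arrays numbered 1 and 2 (log2, x axis, over the 6 groups) for all 61179 tested probe sets (y axis, log scale, bins of 0.1), with vertical lines for named probe sets. COMT1 lies at 0.82 and Ta.336.2.S1_at at 1.17, PEAMT1 next to 0, SAHH (1 of its probe sets) at 0.28, PIMT at -0.68 and DMAS1 at 2.07.

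The array carries a further probe set under each cluster number, without a gene in the annotation. Ta.336.2.S1_at followed COMT1: it averaged 12.78 ± 0.24 (SD, n = 6) on the arrays numbered 1 and 11.61 ± 0.13 (SD, n = 6) on those numbered 2. Its array values correlated with those of COMT1 at Pearson r = 0.99 over 12 arrays, and at 0.92 after the mean of each number was subtracted, given as a description because these arrays share groups and replicate numbers. The suffix x of the COMT1 probe set marks probes that can also bind other transcripts, and wheat carries several near-identical copies of most genes, so the signal may hold more than 1 gene copy.

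Ta.1842.2.S1_at did not follow PEAMT1. Its mean over the 6 stressed arrays was 12.67 ± 0.04 (SD), above the 12.55 ± 0.10 (SD) of the 6 watered daily, with overlap. For PEAMT1 the stressed arrays had the lower mean, 11.27 ± 0.15 (SD) against 11.40 ± 0.14 (SD). The values correlated at r = -0.39 both as deposited and after centring. Whether Ta.1842.2.S1_at measures a transcript of PEAMT1 is not given by the annotation. The suffix a of the PEAMT1 probe set marks probes shared by transcripts of 1 gene.

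The effect of watering every 2 days was then compared within pairs of arrays of the same genotype and number. COMT1 differed under water stress by -0.52 and -0.01 in Pavon76 (array numbers 1 and 2), by -0.16 and -0.29 in Pavon-TL, and by -0.06 and 0.10 in Null Control. It was lower in 5 of 6 pairs, with a mean of -0.16 ± 0.23 (SD) and p = 0.156 in an exact two-sided sign-flip test, whose smallest possible p is 0.0312. The size depended on single pairs: without that of Pavon76 numbered 1 the mean was -0.08 (exact p = 0.312). Without that of Null Control numbered 2, the only positive pair, it was -0.21, lower in 5 of 5 pairs. Leaving out that pair fixes the exact p at 0.0625, the smallest possible with 5 pairs. Within the arrays numbered 1 the mean was -0.25, and within those numbered 2 it was -0.06.

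PEAMT1 differed by -0.05 and -0.02 in Pavon76, by -0.46 and -0.10 in Pavon-TL, and by -0.15 and 0.03 in Null Control. It too was lower in 5 of 6 pairs, with a mean of -0.12 ± 0.17 (SD, exact two-sided p = 0.0938). Without the first Pavon-TL pair the mean was -0.06 (exact p = 0.188). Without the second Null Control pair, again the only positive one, the mean was -0.16. That choice of pair fixes the exact p at 0.0625, the smallest possible with 5 pairs. Within the arrays numbered 1 it was -0.22, and within those numbered 2 it was -0.03, so in both genes the difference was larger within the arrays numbered 1; the difference between these values was not tested. Ta.336.2.S1_at was lower under stress in 4 of 6 pairs, at -0.16 ± 0.26 (SD, exact p = 0.188). Ta.1842.2.S1_at was higher in 5 of 6, at 0.12 ± 0.12 (SD, exact p = 0.0625), the opposite sign to PEAMT1.

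**Figure D3:**
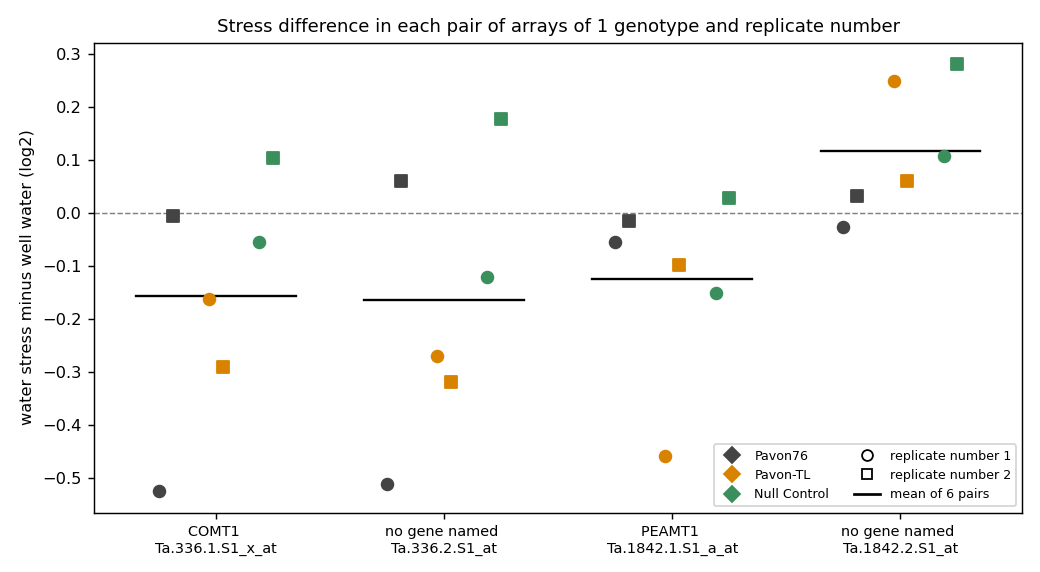
Water stress minus well water (log2, y axis) for each of the 6 pairs of arrays of 1 genotype and replicate number, for the probe sets on the x axis; colours are genotypes, circles and squares the numbers 1 and 2, black bars the mean of 6 pairs. COMT1 and PEAMT1 each have 5 pairs below 0 and 1 wide pair, at -0.52 and -0.46.

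In limma's model of the 6 group means, 0 of the 2 genes were called in any of the 4 stress comparisons (each genotype and their mean). In each of these 0% of all probe sets were called. An unadjusted limma p under 0.05 was reached by 1532 to 2619 probe sets (2.5% to 4.28%). Without any difference, a share of about 0.05 would fall under that threshold. With the replicate number as a block, again 0 of the 2 were called. The background was then 0% in Pavon76 and Pavon-TL, 0.00163% in Null Control and 0.00817% for the mean of the genotypes. With the block, 3666 to 6173 probe sets (5.99% to 10.1%) had an unadjusted p under 0.05. For the mean of the genotypes, COMT1 differed by -0.16 with a 95% interval from -0.82 to 0.51, and from -0.33 to 0.02 with the block (limma adjusted p = 1.00 and 0.532). For PEAMT1 the difference was -0.12 with an interval from -0.33 to 0.08, and from -0.31 to 0.07 with the block (limma adjusted p = 1.00 and 0.659). Taking out the number narrowed the interval of COMT1 and hardly that of PEAMT1. The block changed no call in either gene.

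Within genotypes, the stress difference of COMT1 was -0.26 ± 0.50 (SE) for Pavon76. For Pavon-TL it was -0.23 ± 0.50 (SE), and Null Control gave 0.02 ± 0.50 (SE). The SE was 0.13 with the block. That of PEAMT1 was -0.03 ± 0.15 (SE), -0.28 ± 0.15 (SE) and -0.06 ± 0.15 (SE). The Pavon-TL difference of PEAMT1 had a blocked interval from -0.61 to 0.05 and a blocked limma adjusted p of 0.841. It rested on the stressed arrays, at -0.06 without the first of them and -0.49 without the second. These differences were also compared with each other. Between Pavon-TL and Pavon76 they differed by 0.04 for COMT1 and -0.24 for PEAMT1, between Pavon-TL and Null Control by -0.25 and -0.22, and between Null Control and Pavon76 by 0.29 and -0.03. Of these, 0 were called with or without the block (blocked limma adjusted p from 0.826 to 0.996), against 0% of all probe sets in each of the 3 interactions. Unadjusted p-values were below 0.05 for 1078 to 1648 probe sets (1.76% to 2.69%) without the block. With it they were below 0.05 for 2595 to 3757 (4.24% to 6.14%).

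The genotypes were next compared over both water conditions. With 4 arrays per genotype, the mean of COMT1 was 13.28 ± 0.48 (SD) for Pavon76, and Pavon-TL (13.38 ± 0.55) and Null Control (13.35 ± 0.47) lay close to it. PEAMT1 had means of 11.25 ± 0.11, 11.39 ± 0.24 and 11.36 ± 0.06 (SD) in the same order. The arrays of the 3 genotypes overlapped for both genes.

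Pavon-TL minus Pavon76 was 0.10 for COMT1, with an interval from -0.72 to 0.91 (-0.12 to 0.31 with the block), and 0.14 for PEAMT1, from -0.11 to 0.39 (-0.09 to 0.37 with the block). Each was positive in 3 of 4 pairs of arrays of the same water condition and number, and 0 of the 2 genes were called, against 0.168% of all probe sets (0.499% with the block). Pavon-TL minus Null Control was 0.03 for each gene, with blocked intervals from -0.18 to 0.24 for COMT1 and from -0.21 to 0.26 for PEAMT1. Again 0 of the 2 were called, against 0.152% (0.575% with the block). Null Control minus Pavon76 was 0.07 for COMT1 and 0.11 for PEAMT1, and 0 of the 2 were called, against 0.0049% (0.0147% with the block). The blocked limma adjusted p-values of the genotype comparisons ran from 0.716 to 1.00. The comparisons share arrays, so their values are set side by side only. Of the pairs behind them, PEAMT1 in Pavon-TL was above Pavon76 by 0.12 and 0.40 under well water, and by -0.28 and 0.32 under water stress.

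**Figure D4:**
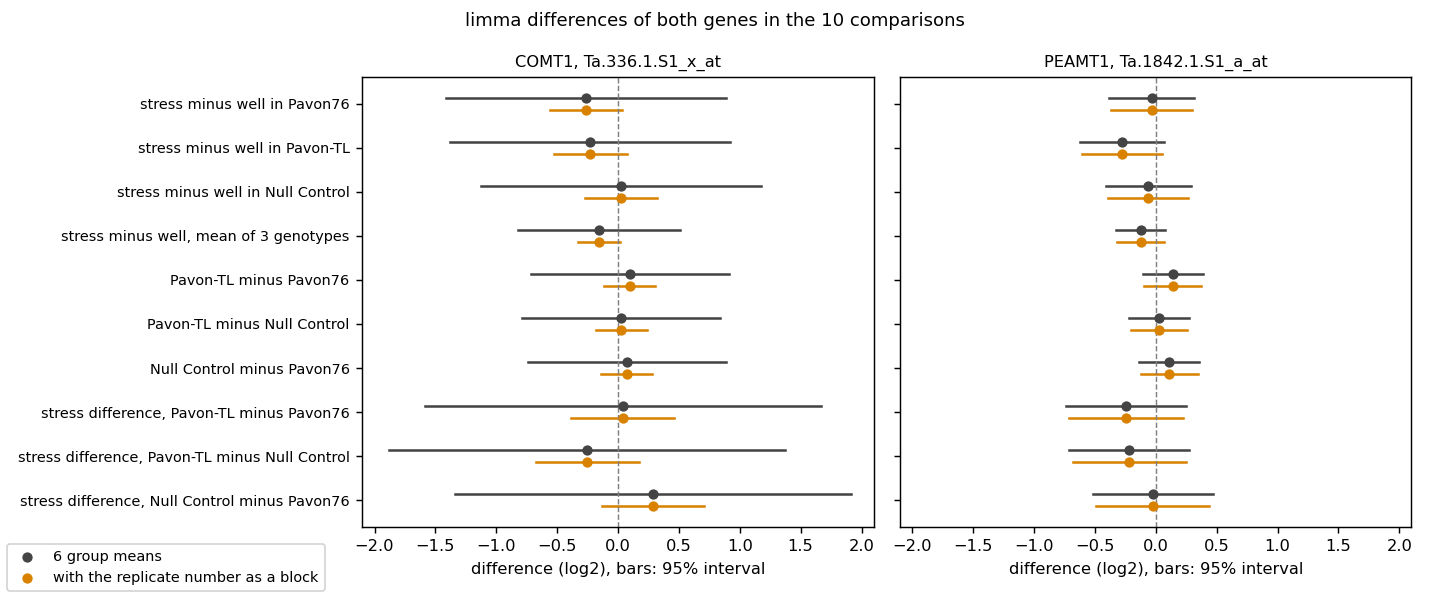
Differences (log2, x axis) of COMT1 and PEAMT1 in the 10 limma comparisons (y axis), with 95% intervals, from the model of 6 group means (grey) and with the replicate number as a block (orange). All intervals include 0, and the block narrows those of COMT1 strongly and those of PEAMT1 only slightly.

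The annotation named few other genes of these pathways. In the phenylpropanoid list COMT1 was the only annotated probe set, and in the choline list PEAMT1 was the only one. The methyl cycle list held 2 probe sets of SAHH, the hydrolase of S-adenosylhomocysteine, and the protein isoaspartyl methyltransferase PIMT (LOC543193), which repairs damaged proteins, was added after the annotation was read. A peroxidase list held 2 probe sets of PER1 (LOC543108), and 0 of these 5 probe sets were called in the 10 comparisons. With 0% to 0.168% of all probe sets called without the block and 0% to 0.575% with it, that count says nothing particular about them.

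PIMT had the opposite sign to COMT1 between the numbers. It read 6.34 to 7.14 on the arrays numbered 1 and 7.15 to 7.63 on those numbered 2, a mean difference of -0.68. The values did not overlap, though narrowly, as in 9.12% of all tested probe sets. In stressed Pavon76 the difference was only -0.07. Its mean stress difference was 0.32 ± 0.26 (SE), and 0.32 ± 0.11 (SE) with the block (limma adjusted p = 1.00 and 0.401). SAHH was higher on the arrays numbered 1 by 0.16 and 0.28 in its probe sets, with overlap, and its mean stress differences were -0.06 ± 0.08 (SE) and -0.10 ± 0.12 (SE). For PER1 the mean stress differences were 0.11 ± 0.10 (SE) and -0.07 ± 0.09 (SE), and the differences between the numbers were 0.11 and -0.02. The 5 probe sets thus had both signs between the numbers.

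Genes with the most similar pattern were taken from 199 other probe sets with a gene name, by Pearson r over 12 arrays after the mean of each number was subtracted. For PEAMT1 the first was DMAS1, an enzyme of phytosiderophore synthesis in grass roots, at r = 0.69 (0.61 to 0.69 over its 3 probe sets). It was followed by a plasma membrane H+-ATPase (LOC543149, 0.65), the catalase CAT1 (0.65), the gibberellin oxidase GA20ox1b (0.64) and the histone H2A-3 (0.63). The most opposite were FKBP70 (-0.83) and 1 of the 28 probe sets of rbcl (-0.68). Over the 3 probe sets of the H+-ATPase r ran from 0.25 to 0.65, and the other probe sets of CAT1 and H2A-3 gave 0.14 and -0.49. With values as deposited, CAT1 came first (0.65), followed by GA20ox1b (0.64), the H+-ATPase (0.62), 1 probe set of rbcl (0.62) and PRK (0.53). DMAS1 was then not among the 5 most similar, and the most opposite were rbcl (-0.67) and raftin1a (-0.65). Among all other probe sets r with PEAMT1 ran from -0.94 to 0.98 after centring and from -0.94 to 0.90 as deposited. None of these genes is thus singled out.

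For COMT1 the most similar were the low molecular weight glutenin LMW-GS (LOC543213, 0.64, and down to -0.18 over its 3 probe sets), the heat shock protein hsp16.9A (0.60), 1 of 28 probe sets of rbcl (0.59, and down to -0.64), the gliadin Gli-Z5 (0.59) and the thionin THI1.1 (0.59, and 0.15 in its other probe set), and the most opposite were cys1 (-0.88, and -0.87 in its other probe set) and AGP-S (-0.67). With values as deposited, the most similar to COMT1 was DMAS1 at 0.93, followed by FKBP70 at 0.91, and the most opposite was WGA2 at -0.93. DMAS1 was itself higher on the arrays numbered 1, by 1.95 to 2.26 over its probe sets. Over all other probe sets r with COMT1 ran from -0.95 to 0.95 after centring and from -0.98 to 0.99 as deposited, so none of these genes is singled out. COMT1 and PEAMT1 correlated with each other at 0.03 as deposited and 0.24 after centring.

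The tissue label was checked on markers of roots and of other organs. DMAS1, the only annotated root iron marker, had mean levels from 9.46 to 10.69 over its 3 probe sets. Levels of different probe sets are set side by side only as a description and were not tested against each other. Of 30 leaf probe sets (rbcl, the large subunit of Rubisco, and PsbP of photosystem II) the median mean level was 3.79, and the highest, of rbcl, was 11.94. Of 13 probe sets in the grain storage list the median was 4.15 and the highest 11.15, that of GLU1A. GLU1A was listed by its symbol alone and may not encode a storage protein. The next highest, of the gliadin Gli-8, was 6.54. Single probe sets of both lists thus gave a strong signal, in the grain list only that of GLU1A.

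The 2 brightest leaf probe sets, both of rbcl, were lower on the arrays numbered 1 in 6 of 6 groups, by 0.43 and 0.46 on average. These same probe sets were higher under water stress in 6 of 6 pairs, by 0.28 and 0.31. A dimmer PsbP probe set was lower on the arrays numbered 1 by 0.41, again in 6 of 6 groups, and was higher under stress in 2 of 6 pairs. Under stress the leaf list had no shared direction. For the mean of the genotypes 17 of its 30 probe sets were higher and 13 lower (median 0.02). Another rbcl probe set, at a mean level of 4.01, differed by -0.11 and was higher in 0 of 6 pairs. The share of all probe sets with a single sign in the 6 stress pairs was not computed. The list as a whole did not share a direction between the numbers. An rbcl probe set at a mean level of 6.39 was higher on the arrays numbered 1 by 0.39, in 6 of 6 groups. The other PsbP probe set was higher by 0.04, in 4 of 6 groups. The list median was 3.79 on the arrays numbered 1 and 3.77 on those numbered 2. Of all tested probe sets, 28.0% kept a single sign between the numbers in all 6 groups. After summing the leaf list per array on the linear scale, the log2 of the sum ran from 12.59 to 13.14 on the arrays numbered 1 and from 13.13 to 13.41 on those numbered 2. With daily watering it ran from 12.59 to 13.31, and in the stressed groups from 13.00 to 13.41. The 2 brightest rbcl probe sets, at mean levels of 11.94 and 11.91 against 8.15 for the next, made up most of this sum.

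The same sum over the grain list ran from 10.62 to 11.81 on the arrays numbered 1 and from 10.96 to 11.96 on those numbered 2, with a range of 10.88 to 11.96 with daily watering and of 10.62 to 11.81 in the stressed groups. GLU1A, at a mean level of 11.15 against 6.54 for the next probe set, made up most of the grain sum. For DMAS1 the sum ran from 11.85 to 13.38 and from 10.31 to 11.11 on arrays numbered 1 and 2, without overlap. Of all tested single probe sets, 6.61% lay wholly higher on the arrays numbered 1. With daily watering the DMAS1 sum ran from 10.31 to 13.38, and in the stressed groups from 10.33 to 12.65. The part of these markers in the results for COMT1 and PEAMT1 was not tested.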

How the data were processed

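The deposited values are RMA values on a log2 scale, per the submitters' processing notes, which name RMA without a version. Array medians lay at 5.89 to 5.93 in a range of 2.32 to 14.84. Affymetrix controls (111 probe sets) were not analysed. No detection calls were used, and the number of arrays limits the precision. Genes came from the platform annotation of 2007 (771 genes, 770 found in the RefSeq table of assembly IWGSC CS RefSeq v2.1, and 102 with a name other than a LOC number).

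Values were fitted with limma 3.58.1 in R 4.3.3 (6 group means, 10 contrasts, empirical Bayes, two-sided, Benjamini-Hochberg over 61179 probe sets), after a test on simulated data. The simulated noise was independent between arrays, so that test did not cover the difference between replicate numbers. Deviations from group means correlated between 0.606 and 0.795 in 15 of 15 pairs of groups, above a limit of 0.1, so the numbers were taken to pair arrays, a reading from these data and not from the labels. The first principal component held 54.4% of the variance and separated the numbers. Alternatives were a replicate block, an intensity trend, a filter on dim probe sets, arrays centred on their median, only the groups compared, and leaving out each array. Named were both genes, probe sets with the same gene or cluster number, the members of the lists, and for each gene the 5 most similar and 2 most opposite named genes. The genes and lists were chosen with earlier results of these data known.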

Additional observations from a re-analysis of the deposited data

Results flagged for a closer look

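In 3 cases both pairs of arrays had one sign under well water and the opposite sign under water stress. The search covered every pair of genotypes, for both genes and the further probe set of each cluster number. It also looked for stress differences of opposite sign between genotypes. The share of such cases over all probe sets was not computed, so the count alone says nothing particular about these probe sets. For COMT1, Null Control minus Pavon76 was -0.13 and -0.02 under well water and 0.34 and 0.09 under water stress, a change of 0.29 (limma interaction, adjusted p = 1.00, and 0.826 with the block). For Ta.336.2.S1_at, Pavon-TL was above Null Control under well water and below it under water stress, a change of 0.32 for Null Control minus Pavon-TL (blocked adjusted p = 0.996). For Ta.1842.2.S1_at, Pavon-TL minus Pavon76 was -0.23 and -0.02 under well water and 0.04 and 0.01 under water stress, a change of 0.15 (blocked adjusted p = 0.957). These differences did not pass the test.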

How the results depend on the processing

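Neither COMT1 nor PEAMT1 was called under any alternative run (lowest limma adjusted p 0.532), and the alternatives that kept all arrays of the groups compared kept every sign. The replicate block moved the counts of called probe sets from 0 to 1 (stress in Null Control), 0 to 5 (mean stress), 103 to 305 (Pavon-TL minus Pavon76), 93 to 352 (Pavon-TL minus Null Control) and 3 to 9 (Null Control minus Pavon76). Without 1 array in turn, the last count ran from 3 to 6 (highest without the first stressed Null Control array). Signs turned when 1 array was left out, which leaves its group with 1 replicate number. For COMT1 the stress difference ran from -0.76 to 0.23 in Pavon76, -0.72 to 0.26 in Pavon-TL, -0.42 to 0.47 in Null Control and -0.322 to 0.0101 for their mean. Its genotype differences ran from -0.15 to 0.34 (Pavon-TL minus Pavon76), -0.22 to 0.27 (Pavon-TL minus Null Control) and -0.18 to 0.32 (Null Control minus Pavon76). Its interactions, in the same order, ran from -0.46 to 0.54, -0.74 to 0.24 and -0.21 to 0.79. For PEAMT1 the sign turned in Pavon76 stress (-0.141 to 0.071), Pavon-TL minus Null Control (-0.0795 to 0.134) and the interaction of Null Control with Pavon76 (-0.132 to 0.0795). Its other differences kept their sign and moved by over 1.5 times: stress in Pavon-TL (-0.491 to -0.0645, the ends without the second and the first stressed Pavon-TL array), in Null Control (-0.110 to -0.0119) and for the mean (-0.196 to -0.0535), Pavon-TL minus Pavon76 (0.0318 to 0.245), Null Control minus Pavon76 (0.0585 to 0.164), and the interactions of Pavon-TL with Pavon76 (-0.456 to -0.0297) and Null Control (-0.430 to -0.00341). With 5 pairs the paired means stayed negative. The most similar named genes of both COMT1 and PEAMT1 changed between centred and deposited values.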
